A study of Mus musculus with 4 samples.

Results

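Naive CD4 T cells that the study left out of its analysis were examined in single-cell RNA sequencing of viable CD45+ cells from EO771 mammary tumors. They were 387 of the 53361 cell barcodes in the table of raw counts, or 0.725%, and 1.55% of the 24932 barcodes that the study did not keep. Members were chosen by measured values: absent from the study's normalized table, under 5% of UMIs (unique molecular identifiers, counted transcripts) from mitochondrial genes, and a higher hashtag count at least 3 times the other. Each also had at least 1 UMI of *Cd3d*, *Cd3e* or *Cd3g*, at least 1 UMI of *Cd4* and at least 1 UMI of *Lef1*, *Tcf7* or *Dapl1*, no UMI of *Cd8a*, *Cd8b1*, *Foxp3*, *Cd79a* or *Ms4a1*, and under 100 UMIs of *S100a8* and *S100a9* per 10000 UMIs.

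EO771 is a C57BL/6 mammary carcinoma line, and the tumors grew orthotopically in female mice to 1.5 cm3. All mice carried *Csf1r fl/fl*, a floxed receptor for macrophage colony-stimulating factor. In *Lyve1Cre Csf1r fl/fl* mice, Cre is driven from *Lyve1*, a gene of lymphatic endothelium and of some macrophages, so Cre can act in any cell that has expressed *Lyve1*, and *Csf1r fl/fl* mice without Cre were the controls. There were 2 tumors per genotype, and each of 2 Chromium runs pooled 1 tumor of each genotype, so run 1 held 26153 barcodes and run 2 held 27208.

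A naive CD4 T cell has left the thymus and has not yet met its antigen. It circulates between blood and lymph nodes, entering nodes with the help of CCR7 and leaving them through the sphingosine phosphate receptor S1PR1, and it stays out of the cell cycle under factors such as KLF2, FOXP1 and TCF-1. On activation it loses these genes and gains receptors, cytokines and adhesion genes that act in tissue.

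The tumor of origin of each cell rested on the counts of its hashtag oligonucleotides, and these are shown because the whole assignment depends on them. The same pair served both runs with the genotypes exchanged.
A0301, *Csf1r fl/fl* in run 1 and *Lyve1Cre Csf1r fl/fl* in run 2: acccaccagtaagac
A0302, *Lyve1Cre Csf1r fl/fl* in run 1 and *Csf1r fl/fl* in run 2: ggtcgagagcattca

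The study's methods state that lymphocyte clusters made up almost wholly of cells from the *Lyve1Cre Csf1r fl/fl* tumor of run 2, with high ribosomal gene expression, were removed, and that cells not called singlets had been filtered out before clustering. Which of these steps removed a given cell was not analysed here. The number of removed cells per tumor and their ribosomal share were therefore set by that choice and are given as a description. There were 9 members in *Csf1r fl/fl* of run 1, 34 in *Csf1r fl/fl* of run 2, 15 in *Lyve1Cre Csf1r fl/fl* of run 1 and 329 in *Lyve1Cre Csf1r fl/fl* of run 2. All values by tumor below are in this order. As a share of barcodes that passed the mitochondrial and hashtag criteria, members were 0.0965% (exact 95% binomial interval 0.0441 to 0.183) and 0.364% (0.252 to 0.508) in *Csf1r fl/fl* and 0.140% (0.0781 to 0.230) and 3.05% (2.74 to 3.39) in *Lyve1Cre Csf1r fl/fl*. Intervals here and below cover counting error only. The *Lyve1Cre Csf1r fl/fl* tumor of run 2 thus held 85.0% of members, and within each run the share was higher in *Lyve1Cre Csf1r fl/fl* than in *Csf1r fl/fl*, with 1 tumor a side. The intervals of the 2 tumors of run 1 overlapped.

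Among other removed lymphocytes, the naive CD8 T cells and B cells lay mostly in the same tumor. Removed naive CD8 T cells, chosen by the same rule with *Cd8a* or *Cd8b1* in place of *Cd4*, numbered 38, 102, 90 and 796, and removed B cells numbered 220, 118, 98 and 2590. Conventional CD4 T cells that the study kept, chosen by the gates on RNA without the one on *Lef1*, *Tcf7* and *Dapl1*, numbered 233, 167, 224 and 166. Kept CD4 T cells were thus spread over all tumors, at 1.54% to 2.5% of barcodes that passed the criteria, while the removed naive and B cell classes were not. Removed CD4 T cells with no UMI of *Lef1*, *Tcf7* or *Dapl1* numbered 13, 26, 36 and 32, and so were spread over all tumors as well.

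Depth and the second hashtag separated the tumors before any gene was compared. Members had 75299, 417659, 152621 and 964552 UMIs in all, and a median of 4559, 9041.5, 3468 and 2598 UMIs per cell. The median count of the other tumor's hashtag in a member was 65, 97, 37 and 4. Of the members, 4 of 9, 25 of 34, 7 of 15 and 31 of 329 had a ratio between hashtags under 10. Scrublet, a doublet caller run on each run, marked 32.9%, 10.6%, 27.1% and 11.3% of all barcodes of the tumors as doublets. It marked 44.4%, 8.82%, 46.7% and 1.52% of members, and none was removed. Without them, members numbered 5, 31, 8 and 324, and the levels of the members by tumor are given with them only. Across the runs, 200 barcode sequences occurred in both runs, 3 of them in members.

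The label of naive CD4 T cells was checked on its markers. *Cd4*, the coreceptor for MHC class II (mm10 chr6:124864692-124888221, minus strand), and *Lef1*, a TCF family transcription factor (chr3:131110471-131224356, plus strand), were used by the rule. *Cd4* stood at 1.46, 1.27, 1.31 and 4.62 UMIs per 10000 UMIs of the members, and *Lef1* at 0.930, 1.03, 0.983 and 5.36. These levels were set in part by the rule and by the depth of the cells, so they cannot check the label. The markers that the rule did not use were *Igfbp4*, an insulin-like growth factor binding protein (chr11:99041244-99054392, plus strand), *S1pr1*, the egress receptor (chr3:115710433-115715072, minus strand), and *Satb1*, a chromatin organizer of T cell development (chr17:51736187-51833290, minus strand). For the label and against kept CD4 T cells they take part in the description only, since the removal rested in part on clusters of all genes. Tests below that include them compare CD4 with CD8 T cells, or the genotypes.

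*Igfbp4* stood at 1.06, 1.13, 1.44 and 3.70 UMIs per 10000 in members. *S1pr1* stood at 1.46, 1.08, 0.721 and 5.37, and *Satb1* at 2.66, 1.70, 0.852 and 8.26. The members of the *Lyve1Cre Csf1r fl/fl* tumor of run 2 were the highest for each, and 316 of these 329 cells (96.0%, 93.3 to 97.9) held a UMI of at least 1 of these genes. All of *Igfbp4*, *S1pr1* and *Satb1* were found together in 103 cells, or 31.3% (26.3 to 36.6).

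The 58 members of the other 3 tumors went against the label in other genes. *S100a6*, a calcium-binding protein of activated and myeloid cells, stood at 48.9, 32.2, 73.8 and 5.85 UMIs per 10000. The value in *Lyve1Cre Csf1r fl/fl* of run 1 was carried by 1 of 15 members, with 878 of the 1127 UMIs, and stood at 24.8 without it. *Ccl5*, a chemokine of effector T and NK cells, stood at 16.7, 16.4, 4.26 and 1.08. Of its 982 UMIs over all members, 1 cell held 273. *Cd74*, the MHC class II invariant chain, stood at 39.7, 14.7, 24.0 and 4.69, and *C1qa*, a complement chain of macrophages, at 2.79, 5.22, 3.08 and 0.145. The 12 macrophage and monocyte genes examined summed to 58.2, 54.8, 33.7 and 7.57 UMIs per 10000 with none at 0 in any tumor, and the 8 NK cell genes to 86.5, 39.9, 21.0 and 7.07. Of the NK cell genes, *Fcer1g* and *Tyrobp* had 1610 and 921 UMIs over all members, and *Gzma* had 668, with 300 in 1 cell. In kept neutrophils, chosen by *S100a8* and *S100a9*, the 8 genes summed to 82.5, 52.7, 75.6 and 50.8, so the list is not specific to NK cells. The 12 B cell genes, none of them used by the rule, summed to 91.8, 31.5, 68.1 and 13.7. They include *Cd74*, *H2-Aa*, *H2-Ab1* and *H2-Eb1*, with 1729, 731, 804 and 813 UMIs over all members. The study also reports these genes in macrophages, so the sum was not read as RNA of B cells. The 58 cells are therefore called members by the rule in what follows, not naive cells, and the account of naive genes rests on the 329 cells.

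**Figure D1:**
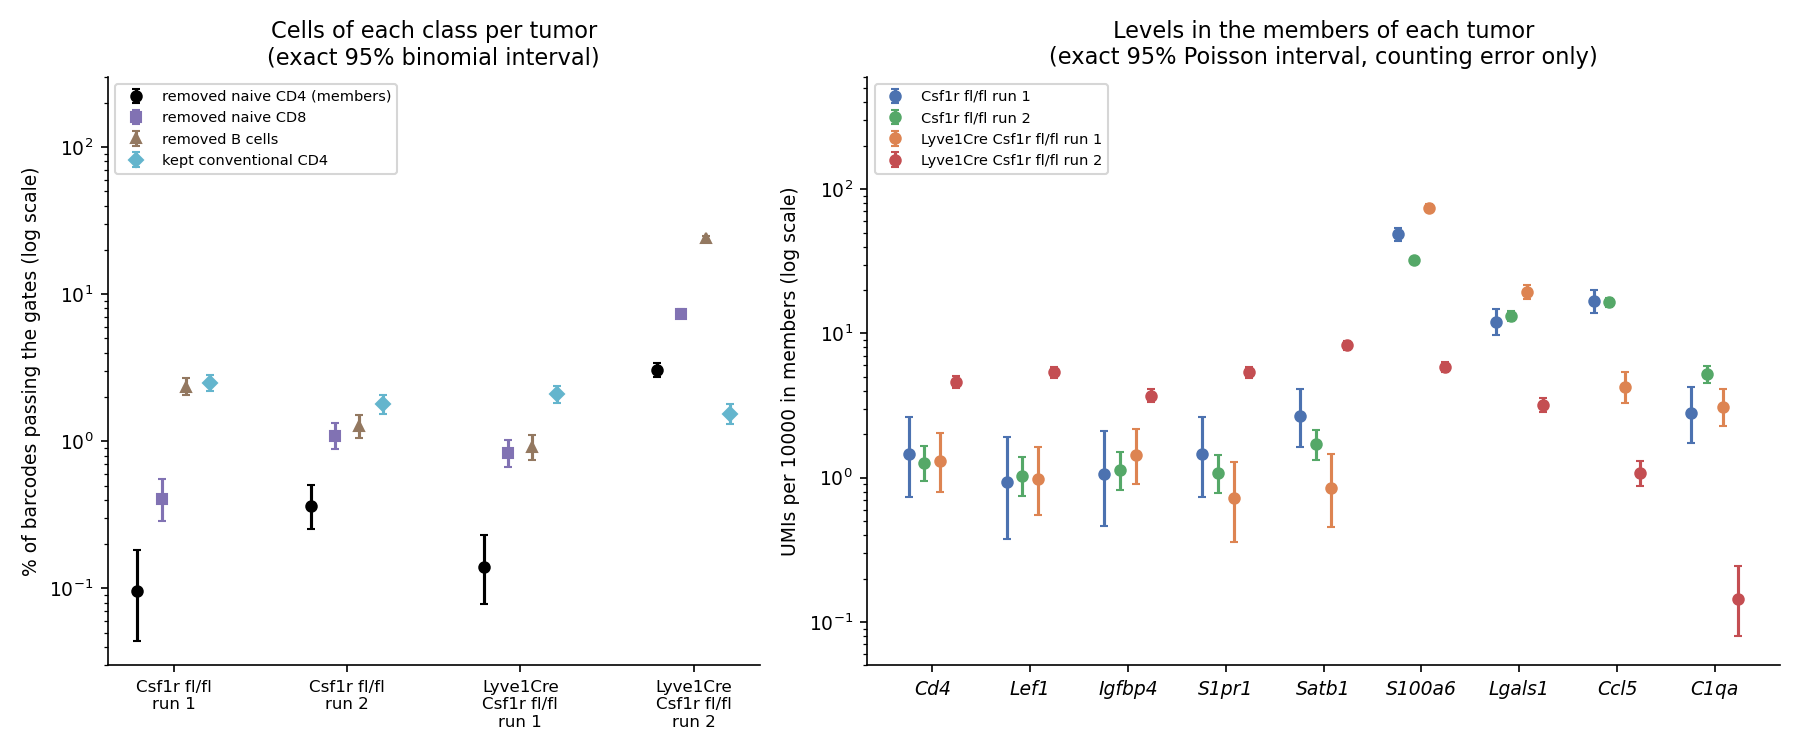
Left, percent of barcodes that passed the mitochondrial and hashtag criteria in 4 classes of lymphocytes, by tumor; right, UMIs per 10000 UMIs of members in each of the 4 tumors for naive markers and for genes of activated and myeloid cells, both on log axes with exact 95% intervals. The *Lyve1Cre Csf1r fl/fl* tumor of run 2 has the most members (3.05%), is the highest for *Satb1* (8.26) and the lowest for *S100a6* (5.85). Levels of *Cd4* and *Lef1* were set in part by the rule.

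Within the *Lyve1Cre Csf1r fl/fl* tumor of run 2, the same genes followed the hashtag ratio. *Satb1* stood at 2.01 and 1.76 UMIs per 10000 in cells that met every other criterion but had a ratio under 2 or from 2 to 3 (30 and 20 cells), at 2.65 in the 7 members from 3 to 5, at 8.87 in the 24 from 5 to 10 and at 8.76 in the 298 at 10 or more. *Igfbp4* stood at 0.823, 0.428, 2.14, 2.92 and 3.94 over the same steps. *S100a6* stood at 35.0, 38.1, 47.4, 9.72 and 1.35. Of the 376 *S100a6* UMIs in the 7 members from 3 to 5, 1 cell held 200, and the others stood at 32.4. For *Satb1* and *S100a6*, the members just inside the hashtag threshold were thus nearer to the cells just outside it than to the members with a ratio of 5 or more, while for *Igfbp4* they lay between them. In the other 3 tumors, the 5, 9 and 8 members with a ratio of 10 or more had *Satb1* at 6.25, 4.76 and 2.26 UMIs per 10000, above the members of their tumor with a lower ratio, and *S100a6* at 38.7, 17.6 and 7.42. In each, 1 cell held 99 of 99, 64 of 107 and 21 of 23 of these *S100a6* UMIs, and without it the others stood at 0, 8.78 and 1.27. *Igfbp4* in these members stood at 3.12, 0.821 and 2.58. In *Csf1r fl/fl* of run 2 that was below the 2.29 of members from 5 to 10 and above the 0.460 of those from 3 to 5. *Ccl5* stood at 7.81, 11.5 and 0.645, against 0.498 at 10 or more in *Lyve1Cre Csf1r fl/fl* of run 2. Whether cells of the pooled tumor were captured with the members was not tested beyond these values.

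**Figure D2:**
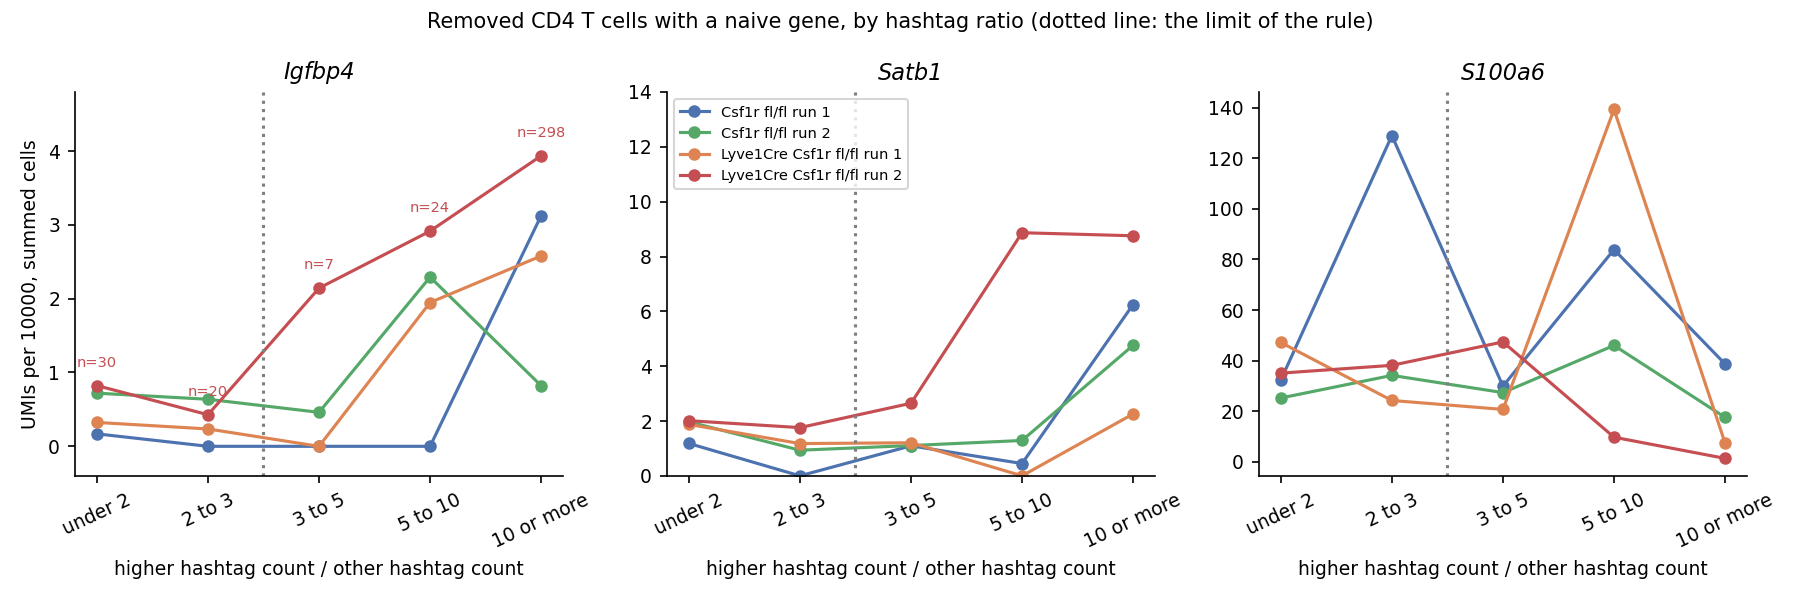
UMIs per 10000 UMIs of removed CD4 T cells by the ratio between the higher and the other hashtag, for *Igfbp4*, *Satb1* and *S100a6* in the 4 tumors, with a dotted line at the threshold of 3 and the number of cells given for *Lyve1Cre Csf1r fl/fl* of run 2. There *S100a6* is at 47.4 in members with a ratio from 3 to 5 (32.4 without 1 cell) and at 1.35 in those at 10 or more, and *Satb1* goes from 2.65 to 8.76.

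The gate on naive genes had a step of the same kind. In this tumor, 32 removed CD4 T cells had no UMI of *Lef1*, *Tcf7* or *Dapl1*, and members with 1, 2, 3 to 5 and 6 or more such UMIs numbered 28, 41, 125 and 135. *Satb1* stood at 1.50 UMIs per 10000 in the cells with none and at 7.11, 6.57, 8.63 and 8.64 in the members. *S100a6* stood at 40.4 in the cells with none and at 4.53, 24.1, 3.72 and 2.32 in the members. The single UMI at the threshold already marked a difference in *Satb1*. Of the 32 cells with none, 18 had a ratio between hashtags under 10, against 31 of the 329 members. The step at this gate was not separated from that of the hashtag ratio. Of the 308 *S100a6* UMIs in members with 2 such UMIs, 1 cell held 200, and without it they stood at 10.5. In members with 1 such UMI, 1 cell held 19 of 28, and the others stood at 1.68.

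Members of the *Lyve1Cre Csf1r fl/fl* tumor of run 2 were then set beside the 166 conventional CD4 T cells that the study kept from that tumor. The gate on *Lef1*, *Tcf7* and *Dapl1* held for members only, so the ratios take in that gate as well as the removal. Members carried more of the genes of naive state and quiescence, and less of the genes of activation, tissue homing, cell cycle and glycolysis. This comparison has 1 tumor and the removal used all genes, so ratios are given with counting intervals and no test. Among 7846 genes with at least 20 UMIs over both classes, 454 (5.79%) were more than 2-fold higher in members and 1431 (18.2%) more than 2-fold lower, and the median log2 ratio was −0.26. Genes of other cell types were often lower too: 9 of 12 measured for macrophages and monocytes, 6 of 6 for NK, 4 of 4 for dendritic and 4 of 5 for B cells. None of these was more than 2-fold higher. The 4 B cell genes were *Cd74*, *H2-Aa*, *H2-Ab1* and *H2-Eb1*, of MHC class II, and the other measured, *Ighm*, had a log2 ratio of 0.46. The 6 NK cell genes included *Fcer1g* and *Tyrobp*. Neither list is specific to its cell type, so the counts were not read as less RNA of B or NK cells. Genes of plasma cells and of neutrophils had 1 higher and 1 lower each. The part of other cell types in the differences below was not tested. Ribosomal protein genes took 32.8% of the UMIs of members and 23.5% of those of kept cells. With ribosomal and mitochondrial genes left out of the totals, every log2 ratio moved up by 0.21, and 709 genes were higher and 1041 lower.

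Of 22 genes of naive state and quiescence, 13 were more than 2-fold higher in members and none more than 2-fold lower, with a median log2 ratio of 1.37. *Satb1* was at 8.26 against 1.35 UMIs per 10000, 6.08-fold higher (5.07 to 7.39), and *Igfbp4* at 3.70 against 0.851, 4.33-fold higher (3.42 to 5.59). Of the 83 *Igfbp4* UMIs in kept cells, 1 cell held 52, and without the top cell of each class the log2 ratio was 3.45 in place of 2.11. *Klf2*, a factor that keeps T cells quiescent and drives *S1pr1*, was at 6.45 against 1.72, 3.73-fold higher (3.15 to 4.46). *Foxp1*, a repressor of activation, was 3.77-fold higher, *Klf3* 4.72-fold, *Dgka*, a lipid kinase that dampens receptor signals, 5.16-fold, and *Gimap6*, a GTPase of lymphocyte survival, 3.93-fold. *Il7r*, the receptor for the survival cytokine IL7, was at 4.99 against 1.87, 2.67-fold higher (2.25 to 3.19). Against the 76 kept CD4 T cells of that tumor that also met the gate on *Lef1*, *Tcf7* and *Dapl1*, 464 of 6929 genes were more than 2-fold higher and 1067 more than 2-fold lower. There the log2 ratio was 1.29 for *Igfbp4*, with the cell of 52 UMIs among their 82, and 2.30 for *Satb1*. The log2 ratio was 1.35 for *Klf2*, against 1.90 with all kept conventional CD4 T cells, and 1.55 for *Il7r*, against 1.42. Against kept conventional CD4 T cells of the other 3 tumors, it was 3.41 for *Igfbp4* and 3.60 for *Satb1*.

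Receptors of lymph node entry and of egress differed by unequal amounts. *S1pr1*, for egress, was at 5.37 against 1.16 UMIs per 10000, 4.62-fold higher (3.77 to 5.73). *Ccr7*, a chemokine receptor for entry, was at 2.67 against 1.46, 1.83-fold higher (1.49 to 2.27). The interval of *S1pr1* lay above that of *Ccr7*.

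Receptors that take T cells into peripheral tissue went the other way. All 7 measured of 11 were more than 2-fold lower in members, with a median log2 ratio of −2.96, or −2.79 with the gene at 0 set at its bound. *Cxcr3*, the receptor for interferon-induced chemokines, was 11.3-fold lower (4.64 to 48.1), and *Cxcr6*, a receptor of tissue-resident T cells, 7.80-fold lower (4.42 to 16.2). *Itgae*, the integrin CD103, had 2 UMIs in members and 45 in kept cells, a ratio of 18 (5.81 to 189). *Ccr4* had no UMI in members and 21 in kept cells, so it was at least 6.92-fold lower at a floor of 3 UMIs over the class.

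Of 24 measured genes of activation and memory, 23 were more than 2-fold lower in members, with a median log2 ratio of −2.38. The exception was *Cd69*, an early activation marker that also binds S1PR1, at 2.90 against 1.22 UMIs per 10000 and 2.37-fold higher (1.91 to 2.97). *Il2ra*, the high-affinity IL2 receptor chain, was 11-fold lower (6.48 to 21.9), *Ctla4* 8.47-fold, *Tnfrsf4* (OX40) 6.33-fold and *Tnfrsf9* (4-1BB) 13-fold. *Cd44*, an adhesion receptor of antigen-experienced cells, was at 0.643 against 2.01, 3.11-fold lower (2.34 to 4.23).

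*S100a6* was at 5.85 against 30.1 UMIs per 10000, 5.14-fold lower in members (4.69 to 5.63), and *Ccl5* at 1.08 against 10.3, 9.53-fold lower (7.81 to 11.8). These ratios grew with the hashtag ratio: in cells of both classes with a ratio of at least 10, the log2 ratio was −4.50 for *S100a6* against −2.36 in all, −4.20 for *Lgals1* (galectin 1) against −2.32, and −4.39 for *Ccl5* against −3.25. That of *Satb1* was 2.68 against 2.61. Without Scrublet doublets in either class, it was −3.28 for *S100a6* and −3.80 for *Lgals1*, of which 1 member held 169 of 307 UMIs. For these comparisons 298 of the 329 members already had such a ratio.

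Kept conventional CD4 T cells held genes of regulatory T cells although cells with a *Foxp3* UMI were left out of both classes. All 9 measured genes of regulatory T cells other than *Foxp3* were more than 2-fold lower in members, with a median log2 ratio of −3.46. Of them, *Il2ra*, *Ctla4*, *Tnfrsf4*, *Tnfrsf9* and *Tnfrsf18* are also counted among the activation and memory genes above, and *Itgae* among the homing receptors. *Ikzf2*, which encodes Helios, was at 0.477 against 6.59 UMIs per 10000, 13.7-fold lower (10.2 to 19.1). Of 12 measured killer genes, 9 were lower, among them *Nkg7*, a cytotoxic granule gene, 5.99-fold (4.41 to 8.44), and *Gzmb*, granzyme B, 4.79-fold, with 24 of its 43 UMIs in 1 member. *Ifng*, interferon gamma, had 4 UMIs in members and was 30.0-fold lower (12.8 to 125), and *Csf2*, GM-CSF, had none against 67. In kept cells 1 cell held 85 of the 136 *Ifng* UMIs and 1 held 57 of the 67 *Csf2* UMIs, and the others stood at 0.529 and 0.106 UMIs per 10000.

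Of 15 cell cycle genes, 13 were more than 2-fold lower in members, with a median log2 ratio of −2.55. *Mki67*, a proliferation marker, was 9.64-fold lower (6.28 to 16.2) and *Top2a*, a topoisomerase of dividing cells, 9.96-fold (6.49 to 16.8). A UMI of *Mki67* or *Top2a* was present in 23 of 329 members, or 6.99% (4.48 to 10.3). Of 13 measured glycolysis and hypoxia genes, 11 were lower, *Gapdh* by 3.12-fold (2.75 to 3.57). Of 17 interferon-stimulated genes, 8 were lower and none higher, *Isg15* by 3.62-fold (3.15 to 4.20).

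T cell receptor genes differed little. Of 20 genes of the receptor complex and its proximal signalling, 3 were more than 2-fold higher in members and none lower, with a median log2 ratio of 0.39. *Lck*, the kinase that starts receptor signalling, was 1.38-fold higher (1.14 to 1.68), and *Cd28*, the main costimulatory receptor, 2.10-fold (1.75 to 2.55). Of 17 measured T cell transcription factors, 8 were higher and 4 lower. *Bach2*, a repressor of effector programs, was 2.60-fold higher (1.72 to 4.08), and *Tbx21*, which encodes the T helper 1 factor T-bet, was 6.92-fold lower (2.95 to 24.5). *Maf*, a factor of effector and regulatory cells, was 5.71-fold lower (4.46 to 7.48).

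Of 7 genes of the CD4 lineage, 1 was higher and 1 lower, with a median log2 ratio of −0.32. *Cd40lg*, the ligand with which helper T cells signal to B cells, was at 1.01 against 0.338 UMIs per 10000, 2.94-fold higher in members (1.98 to 4.55). *Tnfsf8*, which encodes CD30 ligand, was 3.04-fold lower (2.13 to 4.50). Immediate early and stress genes, which can be induced while tissue is dissociated, included 8 of 18 that were higher in members and 1 lower, with a median log2 ratio of 0.85. *Jun* was 2.57-fold higher (2.30 to 2.88), *Fos* 2.34-fold (2.02 to 2.71) and *Hspa1b* 3.71-fold (3.34 to 4.13), and reads of *Hspa1a* and *Hspa1b*, near-identical copies, can be split between them. Their part in the other differences was not tested.

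**Figure D3:**
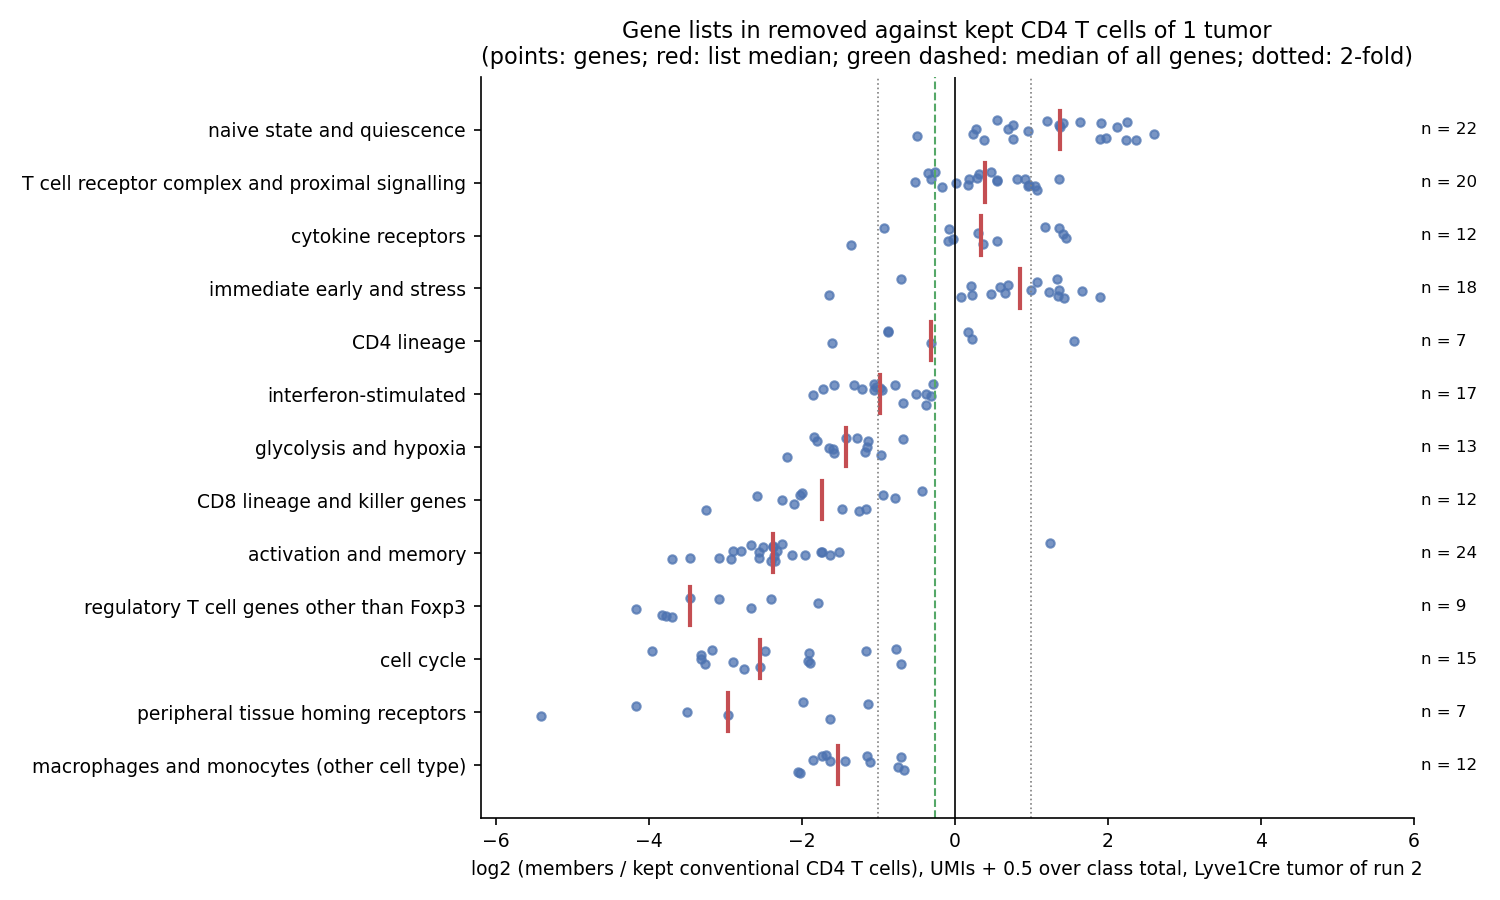
Log2 ratio of members to kept conventional CD4 T cells of the *Lyve1Cre Csf1r fl/fl* tumor of run 2, with 1 point per gene, grouped by gene list, and the median of each list marked. Naive state genes have a median of 1.37, activation and memory genes of −2.38, and all genes tested of −0.26.

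The genes furthest apart by ratio included several outside these lists. *St8sia6*, a sialyltransferase, had 80 UMIs in members and 2 in kept cells, a ratio of 32.5 (10.8 to 340). *Vipr1*, the receptor for vasoactive intestinal peptide, was 7.43-fold higher (3.74 to 18.9), *Als2cl* 7.32-fold, *Rflnb* 6.95-fold, *Scml4* 6.18-fold, *Pdk1*, a pyruvate dehydrogenase kinase, 5.82-fold, and *Dusp10*, a MAP kinase phosphatase, 5.75-fold. *A930005H10Rik* and *Gm12840*, noncoding transcripts, were 5.61-fold and 5.40-fold higher. At the other end, beside *Csf2*, *Ifng*, *Ikzf2* and *Tnfrsf9*, stood genes of chromatin and mitosis: *Hist1h1b* was 19.2-fold lower, *Nusap1* 17.4-fold, *Hells* 16.9-fold, *Hist1h2ae* 13.8-fold and *Cenpf* 12.6-fold, with *Lmna*, lamin A, at 13.7-fold.

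Differences in depth were removed by thinning each cell to 1000 UMIs, and the share of cells with a UMI was read against removed B cells of the same tumor, which should lack several of these genes. Median depths before thinning were 2598 UMIs in members, 3792.5 in kept conventional CD4 T cells, 3098 in removed naive CD8 T cells and 1918 in removed B cells. Shallower cells were left out, 18 removed B cells and none of the other classes. *Igfbp4* was found in 30.1% of thinned members, 3.01% of kept cells and 0.389% of removed B cells, and in 48.0% of members before thinning. *Il7r* was found in 34.3%, 14.5% and 0.933%, and *Cd40lg* in 10.3%, 3.01% and 0 of 2572, which allows a share of cells with a UMI of up to 0.117% at a floor of 3 counts. Before thinning, *Igfbp4* was found in 10.8% of kept cells. Members stood above both other classes for these genes.

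*Satb1* and *S1pr1* were found in 57.8% and 38.3% of thinned members and in 12% and 7.83% of kept CD4 T cells. Removed B cells also held them, in 29.3% and 22.0%, so no background share could be had from B cells for these genes. *Nkg7* was found in 1.82% of members and 1.75% of removed B cells, and *S100a6* in 14.6% and 17.5%, so neither was read as above the background of the library. In kept CD4 T cells they were found in 19.3% and 62.0%. *Ccl5* was found in 6.38% of members, 5.17% of removed B cells and 21.1% of kept CD4 T cells.

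**Figure D4:**
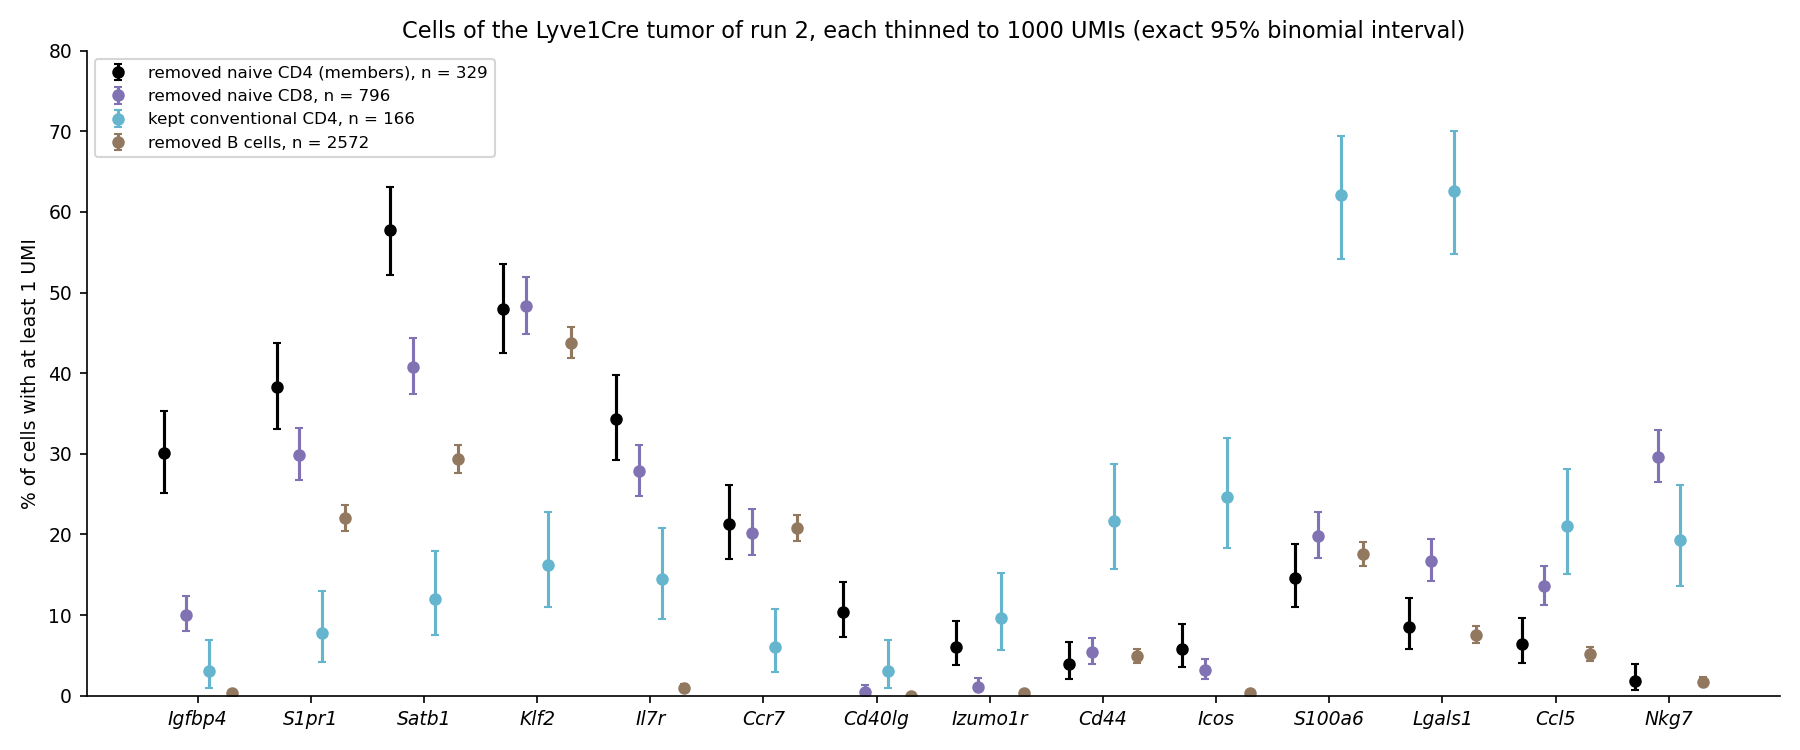
Percent of cells with at least 1 UMI of each gene after thinning every cell to 1000 UMIs, in 4 classes of the *Lyve1Cre Csf1r fl/fl* tumor of run 2. Bars are exact 95% binomial intervals. *Igfbp4* is in 30.1% of members, 10.1% of removed naive CD8 T cells, 3.01% of kept conventional CD4 T cells and 0.389% of removed B cells.

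Removed naive CD8 T cells met the same rule with the other coreceptor, and the comparison with them asks what marks the CD4 lineage among cells that the study left out. In the *Lyve1Cre Csf1r fl/fl* tumor of run 2 alone, 278 of 9591 genes (2.9%) were more than 2-fold higher in members and 891 (9.29%) more than 2-fold lower, with a median log2 ratio of −0.03. Of 7 CD4 lineage genes, 5 were higher, with a median log2 ratio of 1.33, and of 13 killer genes measured, all 13 were lower, with a median of −2.25. Of 22 naive state genes, only *Igfbp4* was past 2-fold, at 3.70 against 1.10 UMIs per 10000 and 3.38-fold higher (2.92 to 3.90). *Satb1* was 1.81-fold higher (1.66 to 1.97), *S1pr1* 1.87-fold (1.68 to 2.08) and *Klf2* 1.10-fold.

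*Cd40lg* was at 1.01 against 0.0545 UMIs per 10000 in that tumor, 18.1-fold higher in members (11.3 to 31.5). *Izumo1r*, which encodes folate receptor 4 and is known from CD4 T cells, was 6.34-fold higher (4.30 to 9.52), and *Zbtb7b*, which encodes ThPOK, the factor that commits thymocytes to the CD4 lineage, 3.80-fold (2.62 to 5.51). *Gata3* was 2.47-fold and *Runx1* 2.51-fold higher. The largest ratios were those of *St8sia6*, 19.7-fold (11.6 to 37.9), *Cd40lg*, *Ly6c1*, 15.9-fold, *Olfr655*, 13.2-fold with 41 of its 43 UMIs in 1 member, and *Tmem64*, 6.62-fold. Also among the 10 largest were *Trat1*, an adaptor of the T cell receptor, at 5.69-fold (4.07 to 8.04), *A630023P12Rik* at 5.22-fold, *B630019A10Rik* at 4.77-fold and *Pdlim4* at 4.07-fold.

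At the low end, *Nkg7* was 8.78-fold lower in members (6.62 to 12.2), *Ctsw*, a protease of killer cells, 7.15-fold (4.90 to 11.3) and *Ccl5* 5.46-fold (4.50 to 6.74). *Ccr9*, a gut homing receptor, was 12.6-fold lower (6.19 to 37.4) and *Ly6c2* 6.27-fold (5.30 to 7.52). *Cd160*, a receptor of cytotoxic lymphocytes, had 1 UMI in members, a ratio of 21.5 (5.65 to 1278), and *Itgae* had 2, a ratio of 17.6 (5.99 to 183). *Trgv2*, a gamma chain variable segment, had none against 61 and was at least 5.35-fold lower. *Kdr*, a receptor of vessels, *Mmp13* and *Gm43698* had no UMI in members against 61, 51 and 64. The stromal genes *Sparc* and *Serpinh1* also had none, but 1 removed CD8 T cell held 76 of 77 and 71 of 73 UMIs. *Hist1h3c* was 15.3-fold and *Wdfy4* 12.7-fold lower. Macrophage genes were lower too, 11 of 12 past 2-fold with a median log2 ratio of −1.79. In this tumor the removed CD8 T cells thus carried more of them than the members. The part of this in the other differences was not tested.

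The removed CD8 T cells are called naive by the rule alone, as the members of 3 tumors are. Of these CD8 T cells, 55.3%, 83.3%, 63.3% and 13.6% had a ratio between hashtags under 10. Scrublet marked 55.3%, 25.5%, 45.6% and 6.03% of them as doublets, against 32.9%, 10.6%, 27.1% and 11.3% of all barcodes. The 12 macrophage and monocyte genes summed in them to 51.4, 51.3, 29.5 and 26.8 UMIs per 10000, against 58.2, 54.8, 33.7 and 7.57 in members. Only in *Lyve1Cre Csf1r fl/fl* of run 2 was the sum thus higher in the removed CD8 T cells. Every tumor had at least 5 cells of both removed classes, so they were also tested over the 4 tumors with edgeR's quasi-likelihood test on UMIs summed per tumor and class, with the tumor as a block. Of 6435 genes tested, 17 passed an adjusted p of 0.05 (0.264%), 5 higher and 12 lower in members, and 299 had an unadjusted p under 0.05. Leaving out *Lyve1Cre Csf1r fl/fl* of run 2 gave 1 higher and 0 lower in edgeR (184 at an unadjusted p under 0.05), leaving out *Lyve1Cre Csf1r fl/fl* of run 1 gave 10 and 21, leaving out *Csf1r fl/fl* of run 2 gave 3 and 14, and without the block no gene passed (165). *Igfbp4* was at 1.06, 1.13, 1.44 and 3.70 UMIs per 10000 in members and at 0.426, 0.285, 0.280 and 1.10 in removed CD8 T cells. It was higher in members in 4 of 4 tumors, by 1.87 ± 0.25 on the log2 scale, edgeR adjusted p = 0.00419. Values after ± are standard errors (SE) from the edgeR fit, the log2 difference over the root of its F statistic. *Trat1* was at 0.133, 0.263, 0.328 and 0.933 against 0.0740, 0.0658, 0.0255 and 0.164. It was higher in 4 of 4 tumors, with 1 UMI in the members of *Csf1r fl/fl* of run 1, by 2.42 ± 0.37, edgeR adjusted p = 0.0133. For both genes the levels of the 2 classes overlapped across tumors but not within a tumor.

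The other genes higher in members were *Tmem64* (2.21 ± 0.42), *Itga6*, an integrin chain (1.86 ± 0.33), and *Trib2*, a pseudokinase (1.82 ± 0.34, 3 of 3 tumors with enough UMIs), with edgeR adjusted p of 0.0405, 0.0260 and 0.0353. *Nkg7* was at 2.92, 2.15, 0.786 and 0.477 UMIs per 10000 in members and at 6.25, 6.11, 8.25 and 4.23 in removed CD8 T cells, lower in 4 of 4 tumors, with no overlap between the classes. The log2 difference was −2.26 ± 0.33, edgeR adjusted p = 0.00885. *Cd160* (−2.51 ± 0.48) and *Klrc1*, the NKG2A receptor (−2.11 ± 0.35), were also lower, with edgeR adjusted p of 0.0398 and 0.0209.

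*Ifng* was at 0.664, 0.239, 0.131 and 0.0415 UMIs per 10000 in members against 0.833, 0.942, 1.86 and 0.265, a log2 difference of −2.18 ± 0.38 (edgeR adjusted p = 0.0260). *Cxcr6* was at 0.133, 0.311, 0.197 and 0.124 against 0.611, 0.679, 1.01 and 0.671, a log2 difference of −1.90 ± 0.32 (edgeR adjusted p = 0.0209). *Adgrg5*, an adhesion receptor, *Trgv2* and *Nr4a2*, a nuclear receptor induced by T cell receptor signals, had log2 differences of −3.00 ± 0.52, −3.16 ± 0.61 and −1.83 ± 0.34, and *Klrk1* and *Ctla2a* also passed. *Spp1* (osteopontin) and *Mmp12*, both genes of macrophages, had log2 differences of −2.21 ± 0.35 and −2.31 ± 0.37, edgeR adjusted p = 0.0152 and 0.0178. *Spp1* was at 0.266, 0.790, 0.0655 and 0.114 UMIs per 10000 in members against 3.59, 2.36, 1.08 and 0.428. Whether RNA of macrophages in either class had a part in these was not tested.

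By list, 1 of 21 naive state genes tested was higher (*Igfbp4*) and none lower, 2 of 12 killer genes were lower with a median log2 difference of −1.56, and 0 of 5 CD4 lineage genes tested passed in edgeR, with a median of 0.66. *Zbtb7b* had a log2 difference of 1.07 and an edgeR adjusted p of 0.633, and *Satb1* one of 0.50. *S1pr1* had one of 0.91 and an edgeR adjusted p of 0.364. The median over all genes tested was near 0. In cells with a hashtag ratio of at least 10, a limit chosen after seeing the data, only 1330 genes could be tested and no gene passed in edgeR, with 54 at an unadjusted p under 0.05. There *Igfbp4* and *Nkg7* had log2 differences of 1.64 and −1.81.

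The same contrast was made in cells that the rule did not use, kept CD4 and kept CD8 T cells that met the same gates on RNA, with 218 and 928 cells over 4 tumors. Of 7737 genes, 261 passed (3.37%) in the same edgeR test, 128 higher and 133 lower in CD4 T cells. The lowest counts with a tumor left out were 61 and 73, without *Lyve1Cre Csf1r fl/fl* of run 1, and without the block they were 34 and 29. Of the 17 genes called between the removed classes, 16 were tested here, 15 had the same sign and 11 passed with that sign. *Trat1* differed by 2.27 on the log2 scale (edgeR adjusted p = 0.000789), *Trib2* by 1.83 (0.00264), *Nkg7* by −1.77 (3.13e-06) and *Klrc1* by −2.44 (8.66e-06).

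*Igfbp4* differed by 1.15 between the kept classes, with an edgeR adjusted p of 0.0514 and with 52 of its 82 UMIs in the kept CD4 T cells of *Lyve1Cre Csf1r fl/fl* of run 2 in 1 cell, *Tmem64* by 0.92 (0.296) and *Itga6* by 0.81 (0.263). *Cxcr6* differed by −0.33 and *Spp1* by 0.66, and neither passed (edgeR adjusted p = 0.512 and 0.211). In these kept cells 5 of 7 CD4 lineage genes were higher in CD4 T cells (*Cd40lg*, *Izumo1r*, *Zbtb7b*, *Gata3* and *Runx1*) and 10 of 13 killer genes lower, and *S1pr1* was higher by 0.84 (edgeR adjusted p = 0.0306). Of 24 activation genes 10 were higher and 1 lower in kept CD4 T cells, and of 8 genes of regulatory T cells 6 were higher. *Ctla4*, *Il2ra*, *Tnfrsf4* and *Tnfrsf18* are counted in both lists.

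**Figure D5:**
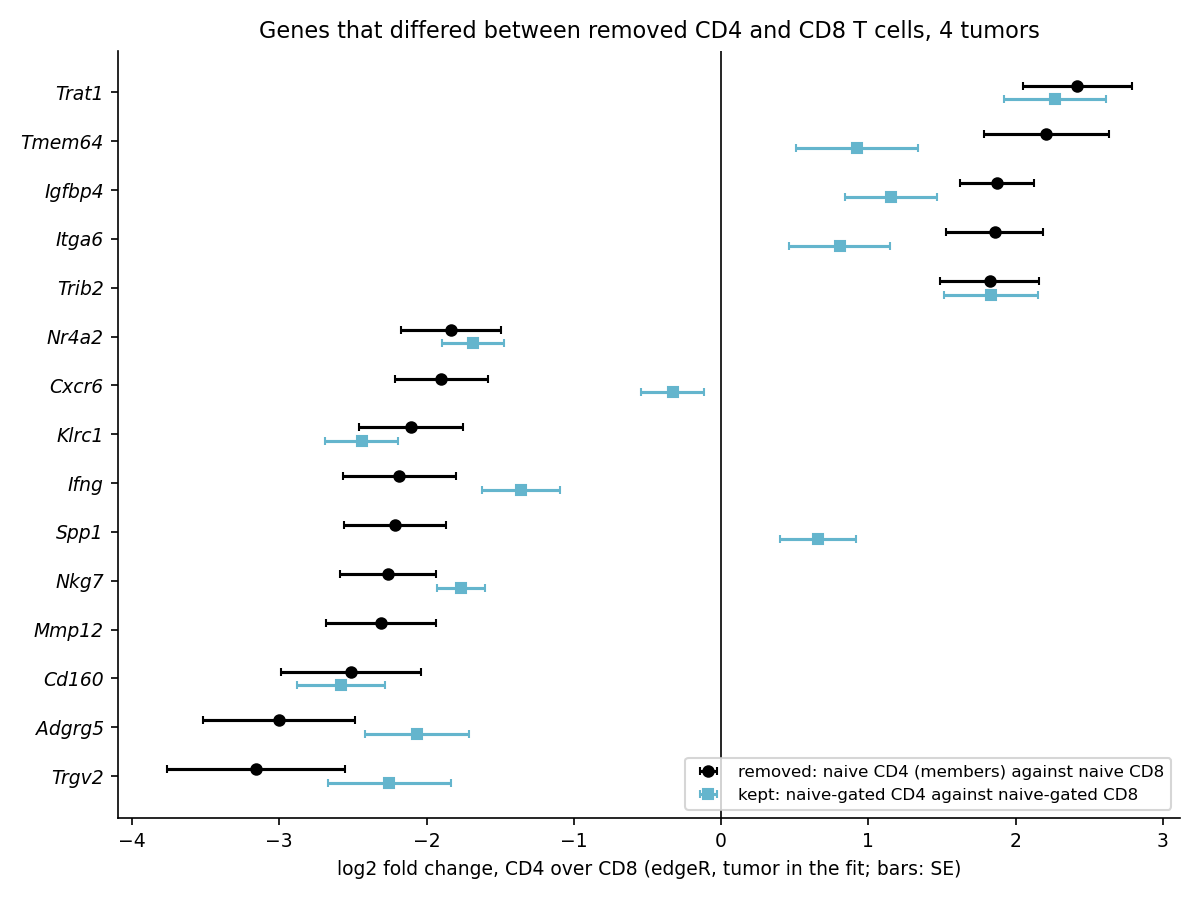
Log2 difference between CD4 and CD8 T cells, for removed cells and for kept cells that met the same gates, for the 15 named genes that passed the edgeR test in removed cells. Bars are standard errors from the edgeR fit to 4 tumors, not a spread between tumors, and *Mmp12* was not tested in kept cells. *Trat1* is at 2.42 and 2.27, and *Cxcr6* at −1.90 and −0.33.

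Members were compared between genotypes, the question of the study, with n = 2 tumors per genotype and UMIs summed per tumor. Of 4112 genes, 0 passed (0%) in edgeR's quasi-likelihood test, 241 had an unadjusted p under 0.05, and DESeq2 called 1 higher and 1 lower. Without *Lyve1Cre Csf1r fl/fl* of run 1, edgeR called 282 genes higher and 400 lower in the *Lyve1Cre Csf1r fl/fl* tumor left, assumed to vary like the others. With 1 or the other *Csf1r fl/fl* tumor left out it called 0 higher and 3 lower, and without Scrublet doublets 17 and 110. The smallest edgeR adjusted p, 0.0862, was that of *Ccl12*, a monocyte chemokine, which stood at 2.39 and 5.60 UMIs per 10000 in *Csf1r fl/fl* and at 0.0655 and 0.104 in *Lyve1Cre Csf1r fl/fl*. Of the 263 *Ccl12* UMIs over all members, 1 cell held 103. Naive state genes had a median log2 difference of 1.10 with none of 21 past the threshold, against 0.10 for all genes. Macrophage and monocyte genes had a median of −1.36 and killer genes of −1.51. The list of NK cell genes, not specific to these cells, had a median of −2.30 with 4 tested. Genes of plasma cells and of tumor and stromal cells, with 2 tested each, had medians of 0.50 and 0.88. Naive state genes summed lower in *Lyve1Cre Csf1r fl/fl* in run 1 (44.7 against 52.2 UMIs per 10000) and higher in run 2 (109 against 57.1).

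Within runs, part of these values did not hold one direction. *Ccl12* was lower in *Lyve1Cre Csf1r fl/fl* in both runs, and *Igfbp4* was higher in both (1.44 against 1.06 and 3.70 against 1.13), though 1 cell held 14 of its 22 UMIs in *Lyve1Cre Csf1r fl/fl* of run 1 and the others stood at 0.798. *Satb1* was lower in *Lyve1Cre Csf1r fl/fl* in run 1 (0.852 against 2.66 UMIs per 10000) and higher in run 2 (8.26 against 1.70). *S1pr1* was lower in run 1 (0.721 against 1.46) and higher in run 2 (5.37 against 1.08), and *S100a6* was lower in run 2 (5.85 against 32.2). In run 1 *S100a6* was at 73.8 against 48.9, but at 24.8 without the cell that held 878 of the 1127 UMIs, so its direction there rested on 1 cell. *Ccl5* was lower in *Lyve1Cre Csf1r fl/fl* in both runs. Since 1 tumor held 85.0% of the members and had the lowest count of the other hashtag, genotype, tumor and the count of the other hashtag cannot be told apart here. A test of whether the difference between removed CD4 and CD8 T cells itself differed between genotypes called 0 of 6435 genes in edgeR, with 159 at an unadjusted p under 0.05 and a smallest adjusted p of 0.0924.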

How the data were processed

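Viable CD45+ cells were sorted from 4 tumors and captured with the Chromium 3′ kit, version 2. Reads were aligned with Cell Ranger 6.0.1 to mm10. The deposited files hold raw counts, UMIs for each gene in each barcode and counts of both hashtags in the same barcodes, not normalized by the authors. A further deposited table holds scores, whole-number corrected counts from SCTransform, and served here as the list of kept cells. The members, markers and gene lists were chosen with earlier results of these data known. Cells went to the tumor of their run with the higher hashtag, and 37 ties went to none. Levels are UMIs per 10000 UMIs summed over a class in a tumor. Ratios have 0.5 UMIs added to each class, and exact 95% intervals are conditional on the sum (Poisson for levels, Clopper-Pearson for shares). Sums per tumor with at least 5 cells were tested with edgeR 4.0.16 (filterByExpr, TMM, quasi-likelihood, Benjamini-Hochberg over all genes, threshold 0.05), and with DESeq2 1.42.0 as an alternative. The test was checked on simulated data. Scrublet in scanpy 1.11.5 used an expected rate of 0.2 per run. Python 3.11.15, numpy 2.4.6, scipy 1.17.1, pandas 2.3.3, matplotlib 3.10.9, R 4.3.3 and limma 3.58.1 were used, with coordinates from GENCODE vM21.

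Both classes of a test came from the same tumors, so the tumor was a block: deviations from the class means correlated by 0.26 to 0.853 within tumors for removed cells and by 0.425 to 0.612 for kept cells. Named genes were those of the lists and the 10 largest and 10 smallest ratios among genes with at least 50 UMIs (for the test, among genes past the threshold with 1 direction in every tumor), the 10 most variable genes among members and the 5 most used *Trbv* genes, without the genes of the rule. Other alternatives changed the filter, thinning, scaling, gates and tumors used. Barcodes in total had between 76157005 and 90633466 UMIs per tumor. Some of the listed genes are not reported here.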

Additional observations from a re-analysis of the deposited data

How the results depend on the processing

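Among the genes followed one by one, 14 against kept CD4 T cells and 15 between the removed classes, none that passed a threshold or 2-fold changed direction under the alternatives run, and *Izumo1r*, at a log2 ratio of 0.23 against kept CD4 T cells, was at −0.99 after thinning. The other tests were followed by counts. Without the cell with the most UMIs of each gene in each class, an alternative chosen after seeing the data, 450 genes were higher and 1374 lower. Members in the *Lyve1Cre Csf1r fl/fl* tumor of run 2 numbered 113 with mitochondrial genes under 2.5% in place of 5% (main 329). Against kept conventional CD4 T cells, genes higher and lower past 2-fold (main 454 and 1431) numbered 151 and 406 among genes with at least 100 UMIs, 1955 and 4092 with no filter, 202 and 634 after thinning, 841 and 2355 against kept cells of the other 3 tumors, and 709 higher with ribosomal and mitochondrial genes out of the totals. Between the removed classes (main 5 higher and 12 lower), edgeR called 20 and 78 genes with no filter, 13 and 43 without Scrublet doublets, 0 and 0 without the tumor as replicate block (165 at an unadjusted p under 0.05), and 0 and 0 in cells with a hashtag ratio of at least 10, an alternative also chosen after seeing the data. Leaving out each tumor gave 1 to 10 higher and 0 to 21 lower, and the lowest values came without the *Lyve1Cre Csf1r fl/fl* tumor of run 2. Of the 15 genes named in that test, 15 stayed past the threshold with other size factors, 13 in DESeq2 and 0 of the 11 tested without that tumor.

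Between the kept classes (main 128 and 133), DESeq2 called 63 and 57, no filter gave 309 lower, no replicate block gave 34 and 29, and leaving out each tumor gave 61 to 93 higher and 73 to 83 lower. Between genotypes (main 0 and 0 in edgeR, 241 at an unadjusted p under 0.05), DESeq2 called 1 and 1, no filter gave 4 and 18, leaving out Scrublet doublets gave 17 and 110, and a hashtag ratio of at least 10 gave 4 lower. The run as replicate block gave 0 and 0 (287 at an unadjusted p under 0.05), and leaving out each tumor gave 0 to 282 higher and 0 to 400 lower, the highest without *Lyve1Cre Csf1r fl/fl* replicate 1; a genotype left with 1 tumor was assumed to vary like the other. The causes were not tested beyond the fewer genes or cells that some alternatives leave. Beside the 329, members numbered 9, 34 and 15, with 75299 to 417659 UMIs per tumor.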

Other observations

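Members of the *Lyve1Cre Csf1r fl/fl* tumor of run 2 used a spread of T cell receptor beta variable genes. A *Trbv* UMI was found in 54 of 329 cells (16.4%), 53 of them with 1 such gene, and 17 of the 35 *Trbv* genes in the table were seen over 62 UMIs. *Trbv2* had 24.2% of these UMIs, *Trbv20* 17.7%, *Trbv19* 12.9%, and *Trbv26* and *Trbv31* 8.06% each. In kept conventional CD4 T cells of that tumor, 34 of 166 cells (20.5%) had a *Trbv* UMI, 11 genes were seen and *Trbv3* led with 23.1%. In removed naive CD8 T cells, 150 of 796 cells had one, 21 genes were seen and *Trbv12-2* led with 11.7%. The library reads the 3′ end, far from the variable segment. Why most cells gave no value was not tested.

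Variation among the members of that tumor was set against counting error. The variance over that expected from depth had a median of 1.59 over 525 genes with at least 200 UMIs, and 169 were over 2. Over all 387 members the median was 2.24 over 990 genes. The most variable genes were *Gm42418* (271), which overlaps a ribosomal RNA repeat, *Cxcl2* (156), a neutrophil chemokine of which 1 cell held 270 UMIs, *Lgals1* (87.4), *S100a6* (77.9) and *Malat1* (46.6). *Lyz2*, *Fth1*, *Cd74*, *Ifi27l2a* and *Il1b*, at 24.8, followed. Over all members *Gzma*, granzyme A, reached 189, with 300 UMIs in 1 cell.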
